A study of Mus musculus with 6 samples.

Results

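The genes described here encode the constitutive 26S proteasome, taken as every gene whose symbol is Psma, Psmc or Psmd followed by a number, together with *Psmb1* to *Psmb4*. The symbols were matched in a table of 26264 genes and gave 32 members, of which 8 belong to the alpha ring, 4 to the beta ring, 6 to the ATPases of the base and 14 to the Psmd series. The study asked how the transcription factor IRF1 acts in hematopoietic stem cells (HSCs), and the expression data are bulk RNA-seq of HSCs sorted from bone marrow, a population that the study defines as lineage-negative, Sca-1- and Kit-positive cells with CD150 and without CD48. There were 3 wild-type (WT) libraries and 3 libraries from whole-body *Irf1-/-* mice carrying the B6.129S2-*Irf1 tm1Mak*/J allele, 1 library per mouse, and all mice were female, 8 weeks old and untreated. Each cell sample was amplified as full-length cDNA before sequencing, and the reads carry no molecular identifiers. The libraries of each genotype are numbered 2 to 4 in the sample descriptions, which are followed here, and 1 to 3 in the sample titles, in the same order. The labels do not state whether a shared number marks a pair.

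The proteasome is the protease that degrades ubiquitin-tagged proteins in the cytosol and nucleus. Its core particle is a barrel in which outer rings of alpha subunits form the gate and inner rings of beta subunits hold the proteolytic sites, and its regulatory particle is built from a base, where a ring of ATPases unfolds the substrate and threads it into the barrel, and a lid that removes ubiquitin. HSCs make protein slowly and depend on protein quality control, and interferon signaling exchanges the catalytic beta subunits of the core particle for the immunoproteasome subunits, which are not among the members.

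Reads assigned to genes numbered 59658080, 45332573 and 43267486 in WT replicates 2, 3 and 4, and 43138521, 57281017 and 45129929 in *Irf1-/-* replicates 2, 3 and 4. The values are gene counts divided by 1 scaling factor per library, called normalized counts below. *Irf1* itself stood at 10122, 11119.6 and 12057.5 normalized counts in the WT libraries and at 9267, 9524 and 9287 in the *Irf1-/-* libraries. Every *Irf1-/-* library lay below every WT library, for a fold change of −0.24 on the log2 scale (SE 0.088, limma adjusted *P* = 0.170). A sum over the gene includes reads from whichever exons the allele retains, so this checks the genotype labels only weakly. All 10 HSC marker genes were detected in every library, with *Kit* the most abundant at 77902 to 88715 normalized counts. The granulocyte and monocyte marker *Lyz2* was detected in every library too, at 23206 to 31462, so detection alone does not check HSC identity. Transcripts of antigens that the sort selects against were detected in every library as well, *Cd48* at 257 to 431 and *Itgam*, which encodes CD11b, at 658 to 2228.

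As a group, the proteasome genes were lower in *Irf1-/-* HSCs by a small amount. Of the 32 members, 31 had a fitted log2 fold change below 0, against 50.4% of the 17404 genes tested, and all 32 did once libraries were centered on their medians or quantile normalized, *Psma8* being the gene that differs. The median log2 fold change of the members was −0.23, with a range from −0.46 to 0.015, whereas the median over all genes tested was −0.0028. The SD of the log2 fold change between members was 0.091, and the median SE of a single member was 0.096. All members were read in the same libraries, so this SE is no measure of the spread between members. Proteasome transcripts made up 0.586%, 0.618% and 0.598% of the reads in the WT libraries and 0.502%, 0.555% and 0.516% in the *Irf1-/-* libraries, so every *Irf1-/-* library devoted a smaller share of its reads to them. Bulk libraries cannot tell apart fewer cells of a type and less RNA per cell.

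**Figure D1:**
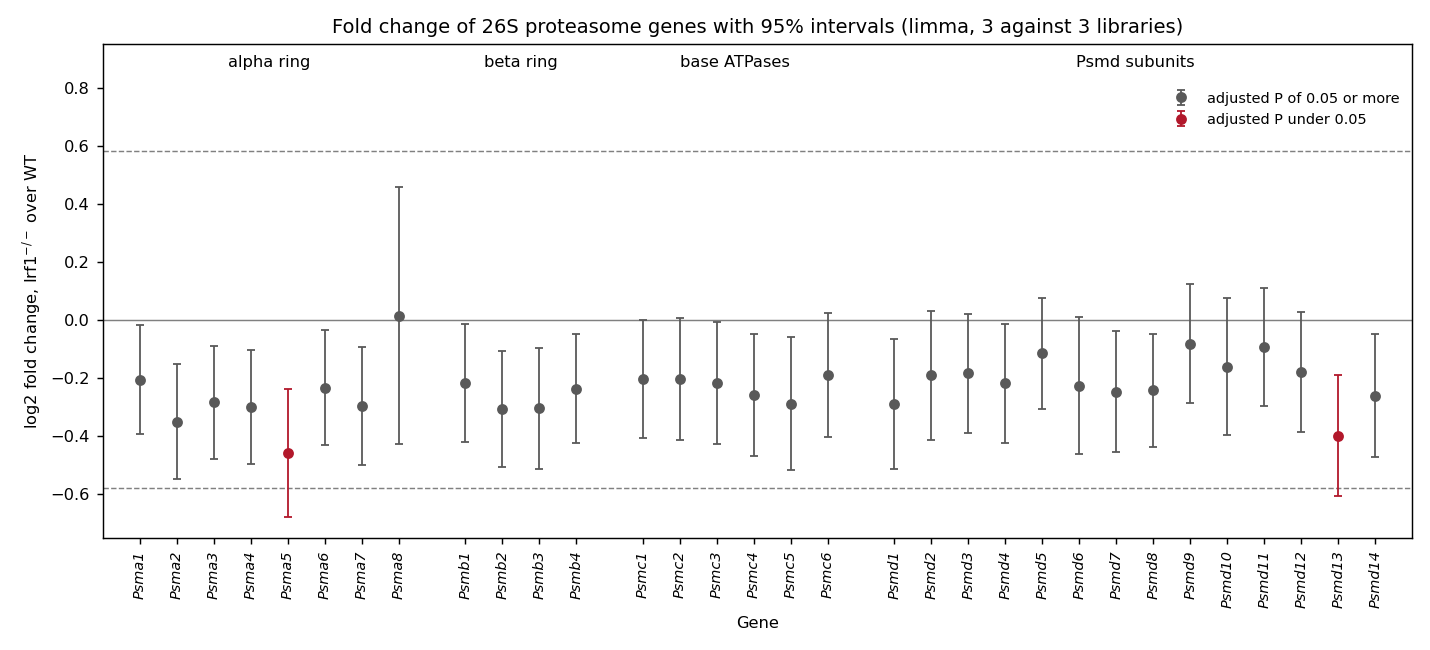
The log2 fold change of each member (*Irf1-/-* over WT, 3 libraries each) is plotted on the vertical axis with its 95% interval from limma, and members are ordered by subcomplex along the horizontal axis. *Psma5* and *Psmd13*, in red, have an adjusted *P* under 0.05, *Psma8* is the member with a value above 0, and dashed lines mark a log2 fold change of 0.58 in either direction.

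Single genes passed the test rarely. *Psma5* and *Psmd13* fell at an adjusted *P* under 0.05, which makes 2 of 32 members, and 1.49% of all genes tested fell at that threshold (3.22% in either direction). None reached a log2 fold change beyond 0.58 as well, a call made for 1.91% of all genes, and this count of 0 held in limma, edgeR and DESeq2. At an unadjusted *P* under 0.05, 21 of 32 members were lower in limma, against 8.07% of all genes, and 21 and 23 were in edgeR and DESeq2, but 8 without limma's trend, against 5.26% of all genes. The 95% interval of 30 members lay within a log2 fold change of 0.58 in either direction, against 50.2% of all genes, the exceptions being *Psma5* and *Psmd13*. The adjusted count rested on single libraries, at 0 without WT replicate 3, *Irf1-/-* replicate 2 or *Irf1-/-* replicate 4, at 1 without WT replicate 2 and at 5 without *Irf1-/-* replicate 3. The share of all genes passing in either direction fell as well, from 3.22% to 1.56%, 1.68% and 1.33% in the first 3 of these fits, and was 1.77% and 2.77% in the last 2. The unadjusted count of 21 became 9 without WT replicate 3, 9 without *Irf1-/-* replicate 2 and 10 without *Irf1-/-* replicate 4, with 5.07%, 6.21% and 5.13% of all genes. The counts at an unadjusted *P* given below for each subcomplex are from the reported fit, and without limma's trend they were 5 in the alpha ring, 2 in the beta ring, 0 among the ATPases and 1 among the Psmd genes. Over the 6 fits with 1 library left out they ran from 5 to 7, 2 to 4, 0 to 6 and 1 to 11 in the same order, the ATPases being at 0 without WT replicate 3 or *Irf1-/-* replicate 2.

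The alpha ring, which gates the entry of substrate into the barrel, showed log2 fold changes with a median of −0.29, and 7 of its 8 members were lower at an unadjusted *P* under 0.05. *Psma5*, a subunit of this outer ring, stood at 6685, 7888 and 7091 normalized counts in the WT libraries and at 4884, 5994 and 4925 in the *Irf1-/-* libraries. The highest *Irf1-/-* library, replicate 3, remained below the lowest WT library, replicate 2. The mean was 7221 ± 612 (SD, *n* = 3) in WT and 5268 ± 629.9 in *Irf1-/-* HSCs, or 72.9% of WT, and the gene fell (log2 fold change −0.46, SE 0.10, adjusted *P* = 0.0267). Its adjusted *P* became 0.114 without WT replicate 3, 0.121 without *Irf1-/-* replicate 2 and 0.138 without *Irf1-/-* replicate 4, and it ranged from 0.000756 in DESeq2 to 0.289 without limma's trend over all alternatives.

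*Psma2*, whose N-terminal tail is part of the closed gate, followed the same order of genotypes. It stood at 9245, 10050.1 and 9466 normalized counts in the WT libraries and at 6867, 8330.2 and 7414 in the *Irf1-/-* libraries. The genotypes did not overlap, and the log2 fold change was −0.35 (SE 0.092, limma adjusted *P* = 0.0551). Its adjusted *P* was 0.0489 in edgeR and 0.0053 in DESeq2. Over all alternatives it was under 0.05 in 8 of 16 and reached 0.317. *Psma7*, the alpha subunit with the highest level per length, had 14535, 15784 and 14916 normalized counts in WT and 10996, 13687 and 12281 in *Irf1-/-* libraries. Again all WT libraries were above all *Irf1-/-* libraries, for a fold change of −0.30 on the log2 scale (SE 0.094, adjusted *P* = 0.114). *Psma1*, *Psma3*, *Psma4* and *Psma6*, the remaining subunits of the somatic ring, had log2 fold changes between −0.30 and −0.21 and no overlap between genotypes either.

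*Psma8* encodes the testis form of the subunit that *Psma7* provides in other tissues, and it behaved differently. It stood at 557, 469.9 and 892 normalized counts in WT and at 671, 640.3 and 561 in *Irf1-/-* libraries. WT replicate 4 was the highest and WT replicate 3 the lowest of all, so the *Irf1-/-* values lay inside the WT range. The log2 fold change was 0.015 (SE 0.21, adjusted *P* = 0.986), with a sign that changed with the scaling. The deposited counts do not show whether reads of the related *Psma7* were assigned to it.

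The beta ring subunits in the list, *Psmb1* to *Psmb4*, are structural and carry no proteolytic site. Their median log2 fold change was −0.27, and 4 of 4 were lower at an unadjusted *P* under 0.05. *Psmb2*, the one with the highest level per length, had 10609, 11117 and 10690.1 normalized counts in WT and 7800.2, 9709 and 8772 in *Irf1-/-* libraries. The WT libraries differed from each other less than the *Irf1-/-* libraries did, and the genotypes were apart, for a fold change of −0.31 on the log2 scale (SE 0.093, adjusted *P* = 0.0962).

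*Psmb3*, another structural subunit, showed 7750.2, 8345 and 7922 normalized counts in WT and 5998, 7444 and 6101 in *Irf1-/-* libraries. Its *Irf1-/-* replicate 3 came nearest to WT replicate 2 without reaching it, and the log2 fold change was −0.30 (SE 0.097, adjusted *P* = 0.117). *Psmb4*, the lowest of the ring per length, had 7019, 7375 and 7801 normalized counts in WT and 5939.95, 6732 and 6166 in *Irf1-/-* libraries. Here WT replicate 4 was the highest library, the genotypes were apart, and the log2 fold change was −0.24 (SE 0.088, adjusted *P* = 0.180). *Psmb1* gave −0.22 on the same scale, and between −0.29 and −0.12 over all alternatives.

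The 6 ATPases, which unfold substrates and drive them into the core particle, formed a tight group with log2 fold changes from −0.29 to −0.19 and a median of −0.21. An unadjusted *P* under 0.05 was reached by 4 of 6. *Psmc5* stood at 7909.8, 8815 and 7418 normalized counts in WT and at 5733, 7483 and 6609 in *Irf1-/-* libraries. The ranges touched, because *Irf1-/-* replicate 3 lay just above WT replicate 4, and the log2 fold change was −0.29 (SE 0.11, adjusted *P* = 0.178). *Psmc4* had 8621, 9789 and 8095 normalized counts in WT and 7041, 8148 and 6960.5 in *Irf1-/-* libraries. The same pair of libraries crossed, and the log2 fold change was −0.26 (SE 0.098, adjusted *P* = 0.191).

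*Psmc3*, the ATPase with the highest level per length, had 13413, 14842 and 13114 normalized counts in WT and 11074, 13529.7 and 11119 in *Irf1-/-* libraries. In this gene *Irf1-/-* replicate 3 exceeded both WT replicate 2 and WT replicate 4 (log2 fold change −0.22, adjusted *P* = 0.289). *Psmc6*, the lowest ATPase per length, had 3763, 3721 and 3117 normalized counts in WT and 2949, 3202 and 3116 in *Irf1-/-* libraries. WT replicate 4 fell among the *Irf1-/-* libraries, and the log2 fold change was −0.19 (adjusted *P* = 0.388). *Psmc1* and *Psmc2* each gave −0.20.

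The Psmd series mixes non-ATPase subunits of the base (*Psmd1*, *Psmd2*, *Psmd4*), subunits of the lid (*Psmd3*, *Psmd6*, *Psmd7*, *Psmd8*, *Psmd11*, *Psmd12*, *Psmd13*, *Psmd14*) and chaperones that help the base assemble (*Psmd5*, *Psmd9*, *Psmd10*). The median log2 fold change was −0.21 over all 14, −0.22 for the 3 base subunits, −0.23 for the 8 lid subunits and −0.12 for the 3 chaperones. Without WT replicate 3 these medians were −0.12, −0.19, −0.16 and −0.058, and that of the chaperones was −0.061 after quantile normalization. An unadjusted *P* under 0.05 was reached by 2 of 3 base subunits, 4 of 8 lid subunits and 0 of 3 chaperones in limma, where the chaperones had adjusted *P* values of 0.537 or more. These counts became 0, 1 and 0 without WT replicate 3, 1, 1 and 0 without *Irf1-/-* replicate 2, and 3, 7 and 1 without *Irf1-/-* replicate 3. *Psmd5*, *Psmd9* and *Psmd10* gave log2 fold changes of −0.12, −0.082 and −0.16. Over all alternatives these ran from −0.17 to −0.058, from −0.13 to −0.036 and from −0.25 to −0.098. The difference between chaperones and subunits was not tested.

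*Psmd13*, a helical scaffold subunit of the lid, stood at 6477, 6766 and 5833 normalized counts in the WT libraries and at 4402, 5294 and 4785 in the *Irf1-/-* libraries. Each *Irf1-/-* library was below each WT library, with *Irf1-/-* replicate 3 the nearest to WT replicate 4. The mean was 6359 ± 478 (SD, *n* = 3) in WT and 4827 ± 447 in *Irf1-/-* HSCs, or 75.9% of WT, and the gene fell (log2 fold change −0.40, SE 0.097, adjusted *P* = 0.0392). Its adjusted *P* became 0.141 without WT replicate 2, 0.153 without WT replicate 3, 0.166 without *Irf1-/-* replicate 2 and 0.147 without *Irf1-/-* replicate 4, and it ranged from 0.00218 in DESeq2 to 0.298 without limma's trend over all alternatives.

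*Psmd1*, a large scaffold of the base, had 14509.6, 16244 and 12881.5 normalized counts in WT and 11550.5, 13223 and 10885.5 in *Irf1-/-* libraries. The *Irf1-/-* replicate 3 library was again above WT replicate 4, and the log2 fold change was −0.29 (SE 0.10, adjusted *P* = 0.166). *Psmd2*, the other base scaffold and the Psmd gene with the highest level per kb of transcript, had 25453, 28025 and 22606 normalized counts in WT and 21105, 24882 and 20630.2 in *Irf1-/-* libraries. The WT libraries themselves spanned more than the distance between the genotype means, and the log2 fold change was −0.19 (adjusted *P* = 0.404). *Psmd9*, a chaperone and the lowest Psmd gene per kb of transcript, had 2782, 2940.2 and 2571 normalized counts in WT and 2504, 2716 and 2608 in *Irf1-/-* libraries. WT replicate 4 was below both *Irf1-/-* replicate 3 and *Irf1-/-* replicate 4, and the log2 fold change was −0.082 (adjusted *P* = 0.759), and between −0.13 and −0.036 over all alternatives.

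*Psmd8*, a lid subunit named after its values were seen, was the other Psmd gene besides *Psmd13* in which the genotypes did not overlap. It had 9460.2, 10183 and 9258 normalized counts in WT and 7486, 8933 and 8058 in *Irf1-/-* libraries, for a fold change of −0.24 on the log2 scale (SE 0.091, adjusted *P* = 0.184). *Psmd14*, the deubiquitinase of the lid, gave −0.26, and *Psmd4*, a ubiquitin receptor, gave −0.22. The remaining lid subunits ran from −0.25 for *Psmd7* to −0.094 for *Psmd11*. Over all alternatives *Psmd7* lay between −0.31 and −0.17 and *Psmd11* between −0.15 and −0.020.

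**Figure D2:**
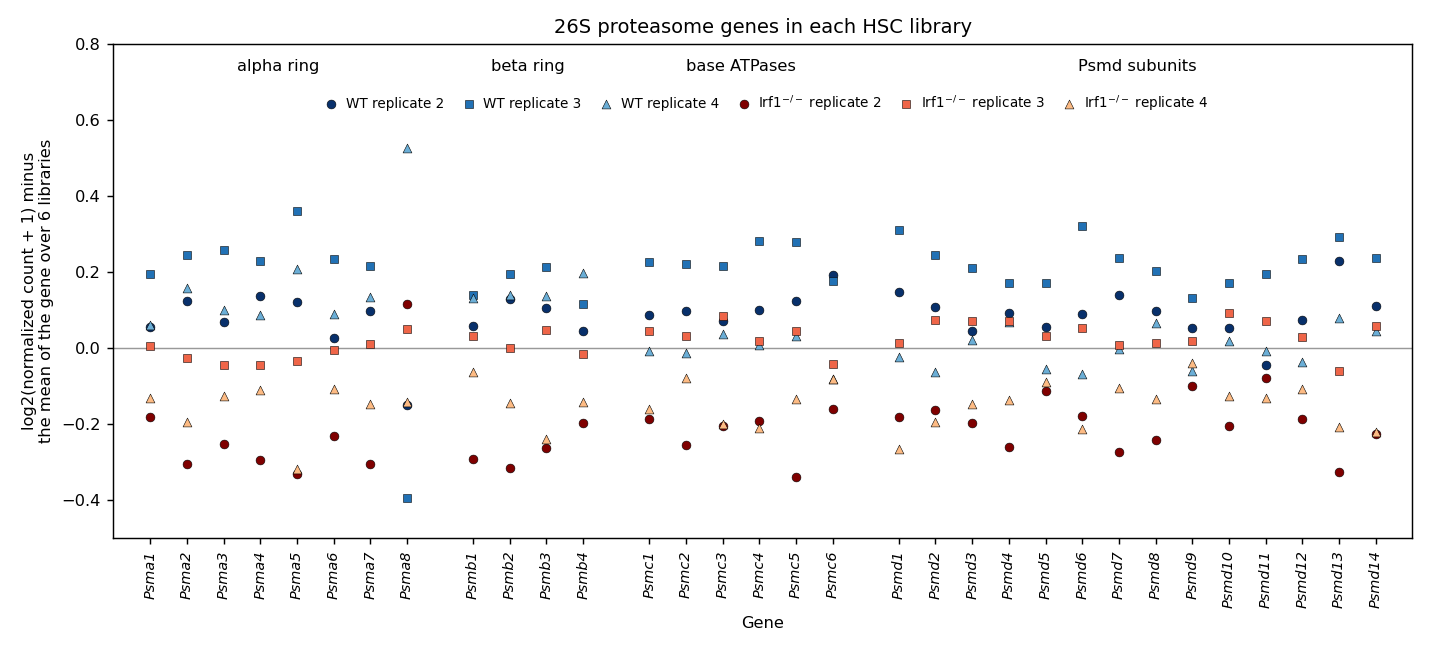
Each point is 1 library, placed on the vertical axis by its log2 normalized count (with 1 added) minus the mean of that gene over the 6 libraries, with genes ordered by subcomplex along the horizontal axis. WT replicate 4 (light blue triangles) is above *Irf1-/-* replicate 3 (orange squares) in all 12 alpha and beta ring genes and below it in 18 of the 20 Psmc and Psmd genes.

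The overlap between genotypes was counted in each subcomplex, with values as deposited. All 3 *Irf1-/-* libraries lay below all 3 WT libraries in 13 of 32 members, against 9.27% of all genes tested. These were 7 of 8 alpha ring genes, 4 of 4 beta ring genes, 0 of 6 ATPase genes and 2 of 14 Psmd genes, and after median centering and quantile normalization the Psmc and Psmd genes rose to 13 and 14 of 20. The difference between subcomplexes was not tested. *Irf1-/-* replicate 3 was above WT replicate 4 in 0 of 12 ring genes and in 18 of 20 Psmc and Psmd genes, against 51.4% of all genes. In contrast, *Irf1-/-* replicates 2 and 4 were both below all WT libraries in 30 of 32 members, against 18.0% of all genes.

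WT replicate 4 took a different place in the ring genes than in the Psmc and Psmd genes. It was above WT replicate 2 in 11 of 12 ring genes and in 1 of 20 Psmc and Psmd genes, against 47.6% of all genes. After median centering these counts were 12 and 6, with 55.7% of all genes, and after quantile normalization 12 and 7, with 49.0%. Its mean log2 deviation from the 6-library mean was 0.16 over the ring genes and −0.0029 over the Psmc and Psmd genes, a difference of 0.17. In the other 5 libraries the same difference lay between −0.060 and −0.0058. The difference in WT replicate 4 was 0.17 after quantile normalization as well. The ring mean includes *Psma8*, whose deviation of 0.53 in WT replicate 4 was the largest of the ring genes. Median deviations in this library, as deposited, were 0.14 over the ring genes and −0.0057 over the Psmc and Psmd genes. WT replicate 4 is also the library with the most reads of the neutrophil genes *S100a8* and *S100a9*, at 1033 and 1246 normalized counts, where no other library exceeded 131. The whole granulocyte and monocyte list, led by *Lyz2*, summed to 23718, 29811 and 28900.1 in WT and to 26258, 32072 and 27405 in *Irf1-/-* libraries. Most of each sum was *Lyz2*, at 23206, 29137 and 25956 in WT and 25549, 31462 and 26617 in *Irf1-/-* libraries. Over the 6 tested genes of the list, the mean log2 deviation was 1.57 in WT replicate 4 and between −0.69 and 0.38 in the other libraries. *Mpo*, *Elane*, *Csf1r* and *Lyz2* were not highest in WT replicate 4. The part that these genes play in the proteasome values was not tested.

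The overlap in the Psmc and Psmd genes depended on scaling. Genes with all *Irf1-/-* libraries below all WT libraries numbered 24 of 32 after median centering and 25 after quantile normalization, when 12.7% and 11.4% of all genes did. The ring genes stayed at 11 of 12. *Irf1-/-* replicate 3 was then above WT replicate 4 in 6 and 2 of the 20 Psmc and Psmd genes, against 43.2% and 50.2% of all genes. Leaving out a library can only raise the counts of genes without overlap, and without WT replicate 4 they were 27 of 32 members and 16 of 20 Psmc and Psmd genes, with 19.8% of all genes.

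Within each genotype most members had the same highest library, with values as deposited. WT replicate 3 was the highest WT library in 29 of 32 members, against 37.4% of all genes, and *Irf1-/-* replicate 3 was the highest *Irf1-/-* library in 31 of 32, against 39.6%. *Irf1-/-* replicate 2 was the lowest of its genotype in 26 members, against 35.5% of all genes, and WT replicate 4 in 20, against 40.3%, with WT replicate 2 the lowest in 11. The mean log2 deviation over all members was 0.085, 0.20 and 0.060 in WT replicates 2, 3 and 4 and −0.22, 0.021 and −0.15 in *Irf1-/-* replicates 2, 3 and 4. In WT replicates 2, 3 and 4 it was 0.069, 0.231 and 0.095 after median centering and 0.055, 0.115 and 0.119 after quantile normalization. WT replicate 4 was thus slightly above WT replicate 3 in the last scaling. Members above their own 6-library mean numbered 30, 31 and 21 in the WT libraries and 1, 23 and 0 in the *Irf1-/-* libraries. The value of *Irf1-/-* replicate 3 was near 0 in every scaling and turned to −0.0084 and −0.023 after median centering and quantile normalization.

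Levels of different members can be set side by side once divided by transcript length. In WT HSCs the median was 6111 normalized counts per kb of transcript, with *Psma7* highest at 16497 ± 700.4 (SD, *n* = 3) and *Psma8* lowest at 378 ± 132, a 43.7-fold distance. The beta ring had the highest median, 9722, with the alpha ring at 6323, the ATPases at 6125 and the Psmd genes at 4691. Within the beta ring *Psmb2* (12579) exceeded *Psmb4* (6254) 2.01-fold, and within the ATPases *Psmc3* (7581) exceeded *Psmc6* (1621) 4.68-fold. Within the Psmd genes *Psmd2* (8565) was highest and the chaperones *Psmd9* (1065) and *Psmd10* (1418) were lowest, an 8.05-fold distance.

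The order of levels was nearly the same in both genotypes. Of the 32 members, 18 kept their place and 11 moved by 1 place, and the largest move was 3 places, by the lid subunit *Psmd3* from 17 to 14. Neighbors in the order were often within their spread, as were *Psma6* at 10990.2 ± 818 and *Psma1* at 10867 ± 605 per kb. The choice of length moved these distances and places. Per kb of coding sequence the distance over all members was 23.8-fold, again from *Psma7* to *Psma8*, and that over the Psmd genes was 3.85-fold, from *Psmd7* (11231) to *Psmd10* (2914), with *Psmd2* at 9300 and *Psmd9* at 4132. The order of the subcomplex medians was the same, at 12920 for the beta ring, 12392 for the alpha ring, 6810 for the ATPases and 6103 for the Psmd genes. *Psma2* stood in place 25 per kb of transcript and in place 6 per kb of coding sequence, and *Psma3* in places 27 and 8, and both have long untranslated regions in the annotation used.

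**Figure D3:**
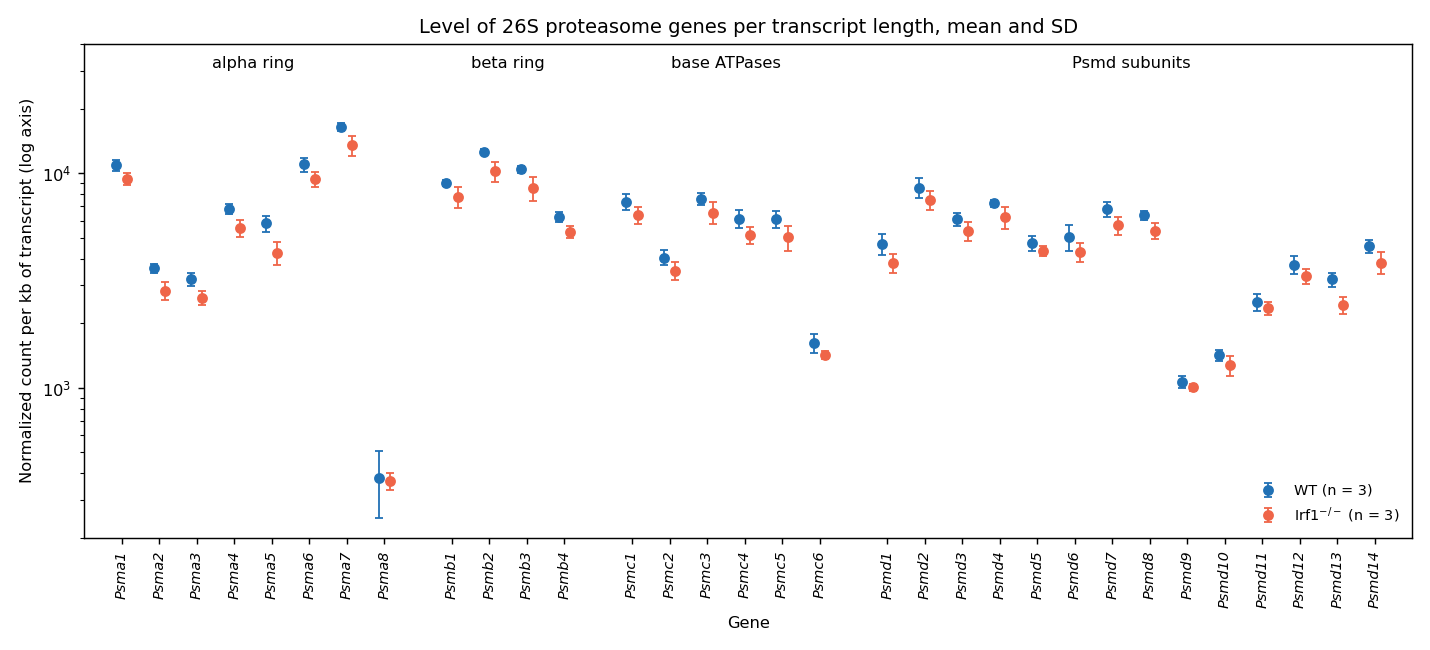
Mean normalized count per kb of transcript (vertical axis, log scale) with its SD is plotted for each member in WT (blue, *n* = 3) and *Irf1-/-* (orange, *n* = 3) HSCs, ordered by subcomplex. *Psma7* is highest and *Psma8* lowest in both genotypes.

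Among 45 other genes of the proteasome pathway, 44 were tested and 5 fell at an adjusted *P* under 0.05, against 1.49% of all genes, while 0 rose in limma. Of the 44, 35 had a log2 fold change below 0, against 50.4% of all genes. At an unadjusted *P* under 0.05, 15 were lower, against 8.07% of all genes, and 2 were higher. At an adjusted *P* under 0.05 edgeR found 5 genes and DESeq2 10 in either direction, with 3.31% and 7.64% of all genes. Without *Irf1-/-* replicate 2 the lower genes at an unadjusted *P* went from 3 to 0 among catalytic beta subunits and from 2 to 0 among proteasome-associated enzymes. They were 3 in both fits among immunoproteasome subunits and among core particle assembly chaperones, with 6.21% of all genes in the smaller fit. The catalytic subunits that complete the constitutive beta ring had log2 fold changes inside the range of the members. *Psmb5*, the chymotrypsin-like subunit, had 5895, 6481 and 5536 normalized counts in WT and 4505, 5593 and 4658 in *Irf1-/-* libraries. *Irf1-/-* replicate 3 lay just above WT replicate 4, and the log2 fold change was −0.28 (SE 0.10, adjusted *P* = 0.170). *Psmb6*, the caspase-like subunit, had 12888, 14017 and 13354 normalized counts in WT and 10312, 13568 and 10723 in *Irf1-/-* libraries, with the same library crossing into the WT range and a log2 fold change of −0.23 (adjusted *P* = 0.293). *Psmb7*, the trypsin-like subunit, had 3594, 3911 and 3842 normalized counts in WT and 2935, 3409 and 3172 in *Irf1-/-* libraries. Its genotypes did not overlap, with a log2 fold change of −0.26 (adjusted *P* = 0.177).

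The interferon-inducible counterparts fell further than any member did. *Psmb8* had 23829, 27628 and 24345 normalized counts in WT and 12519.5, 14237 and 14907 in *Irf1-/-* libraries (log2 fold change −0.86, adjusted *P* = 0.000160). *Psmb9* had 9553, 10164 and 9865 in WT and 4825, 4948 and 5257 in *Irf1-/-* libraries (log2 fold change −0.98, adjusted *P* = 9.98e-06). *Psmb10* had 8617, 9559 and 8442 in WT and 4094, 5061 and 4583 in *Irf1-/-* libraries (log2 fold change −0.96, adjusted *P* = 7.11e-05). The genotypes were far apart in all 3 of these immunoproteasome subunits. *Psme1*, a subunit of the interferon-inducible activator cap, had 13878, 15235 and 15109.5 in WT and 9099, 10211.5 and 10219 in *Irf1-/-* libraries (log2 fold change −0.58, adjusted *P* = 0.00204). *Psme2*, its partner, had 5780.1, 5898 and 5967 in WT and 2988, 3635 and 3216 in *Irf1-/-* libraries (log2 fold change −0.85, adjusted *P* = 0.000164). These 5 genes kept an adjusted *P* under 0.05 whichever library was left out, while without limma's trend *Psmb9* passed (adjusted *P* = 0.0318) and the other 4 did not. The difference between their changes and those of the members was not tested. *Psmb11*, the thymus-specific subunit, was near 0 at 0 to 10.8 normalized counts and was not tested.

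The signs of the fitted changes were counted in other pathway groups as well. Of 2 further regulatory particle subunits with other symbols, 1 was lower, *Adrm1* giving −0.086 on the log2 scale (adjusted *P* = 0.731) and *Sem1* 0.058 (adjusted *P* = 0.921), a value that was −0.17 without WT replicate 3. Over all alternatives *Adrm1* lay between −0.15 and −0.015 and *Sem1* between −0.17 and 0.21. All 5 core particle assembly chaperones were lower, with a median log2 fold change of −0.30. For *Pomp*, which helps the barrel mature, the value was −0.33 (limma adjusted *P* = 0.107), and the smallest limma adjusted *P* in the group was 0.106. In DESeq2 the adjusted *P* was 0.0425 for *Psmg1*, 0.0252 for *Psmg2* and 0.0325 for *Pomp*. It was 0.223 for *Psmg3* and 0.478 for *Psmg4*, and 7.64% of all genes passed there in either direction. The transcription factors of proteasome genes and their processing enzymes gave 0 of 4 lower and a median of 0.11, and the smallest limma adjusted *P* was 0.255. This count of 0 was the same in both other scalings, but became 2 without WT replicate 4 (median 0.038) and 1 without *Irf1-/-* replicate 3 (median 0.070), through *Ddi2* and *Ngly1*. The difference between these groups was not tested. *Nfe2l1*, the factor that raises proteasome genes when the protease is inhibited, stood at 8827, 8869 and 7996 normalized counts in WT and at 9269, 10839 and 9668 in *Irf1-/-* libraries. All *Irf1-/-* libraries were above all WT libraries, for a fold change of 0.21 on the log2 scale (SE 0.090, adjusted *P* = 0.255). Medians were −0.099 for shuttle receptors, −0.079 for proteasome-associated enzymes, −0.050 for the VCP unfoldase group and −0.057 for ubiquitin and its activating enzymes, the last turning to 0.014 after quantile normalization. With 1 library left out these 4 medians ran from −0.17 to −0.00090, from −0.12 to −0.042, from −0.12 to 0.0019 and from −0.11 to −0.018. *Pomp* and *Nfe2l1* were named after their values were seen.

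Genes of the cell cycle were lower along with the proteasome genes. All 43 genes of an S phase list and all 54 of a G2/M list had log2 fold changes below 0, against 50.4% of all genes. Their medians were −0.41 and −0.44, against −0.0028 over all genes tested. At an adjusted *P* under 0.05, 8 and 10 of them fell, against 1.49% of all genes. The S phase genes, of which *Mcm6* was the most abundant, summed to 353942, 390307 and 295434 normalized counts in WT and to 274488, 282202 and 244463 in *Irf1-/-* libraries, with 0 of them at 0 in any library. The G2/M genes, led by *Tubb4b*, summed to 308954, 317687 and 248809 in WT and to 237764, 245199 and 183891 in *Irf1-/-* libraries, again with 0 at 0. WT replicates 2 and 3 were highest and *Irf1-/-* replicate 4 lowest in both lists, while *Irf1-/-* replicate 2 was the lowest library for the proteasome genes. The S phase count was 1 without WT replicate 2, WT replicate 3 or *Irf1-/-* replicate 4, 4 without *Irf1-/-* replicate 2 and 27 without WT replicate 4, and the G2/M count was 0, 1, 0, 5 and 31 in the same order of libraries. Without limma's trend both counts were 0, and in DESeq2 they were 29 and 30. The share of all genes passing in either direction also moved, from 3.22% to 5.77% without WT replicate 4, to 7.64% in DESeq2 and to between 1.33% and 1.77% without WT replicate 2, WT replicate 3, *Irf1-/-* replicate 2 or *Irf1-/-* replicate 4. The part of cell cycle state in the proteasome values was not tested.

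Marker genes of other cells were also read in each library. The megakaryocyte list, with *Itga2b* the most abundant, summed to 45307, 57853 and 43180 normalized counts in WT and to 38989, 23826 and 34588 in *Irf1-/-* libraries, and 1 of its 4 genes fell, *Pf4* (log2 fold change −1.11, adjusted *P* = 0.00334). The erythroid list summed to 3102, 2380.1 and 3838 in WT and to 1761, 663 and 1046 in *Irf1-/-* libraries, with *Car1* or *Klf1* the most abundant gene and the globin genes *Hbb-bs* and *Hba-a1* listed at 0 in all 6. *Klf1* fell (log2 fold change −0.72, adjusted *P* = 0.0361), but passed neither without WT replicate 2 (adjusted *P* = 0.117), WT replicate 3 (0.109), *Irf1-/-* replicate 2 (0.0583) nor *Irf1-/-* replicate 3 (0.0700). *Car1* fell in limma (log2 fold change −3.51, adjusted *P* = 0.0200) and not in edgeR (adjusted *P* = 0.0887) or DESeq2 (0.195), nor without *Irf1-/-* replicate 3 (0.0603) or *Irf1-/-* replicate 4 (0.0681). Of the HSC markers, *Procr* and *Fgd5* rose (log2 fold changes 0.52 and 0.83, adjusted *P* = 0.0112 and 9.13e-05), and *Ly6a*, which encodes the sorting antigen Sca-1, fell (−0.43, adjusted *P* = 0.0245), though not without WT replicate 3 (adjusted *P* = 0.0786), *Irf1-/-* replicate 2 (0.115) or *Irf1-/-* replicate 4 (0.112). Without limma's trend 0 of these 6 marker genes passed, *Fgd5* coming nearest at an adjusted *P* of 0.0511. Markers of B cells, T and NK cells, granulocytes and monocytes, and stroma had 0 genes at an adjusted *P* under 0.05 in limma. The share of all genes tested was 3.22% in either direction. At an unadjusted *P* under 0.05 these lists had 0, 0, 0 and 1 genes, against 2863 of the 17404 genes tested. Their tested genes numbered 5, 4, 6 and 5, with median SEs of 0.50, 0.43, 0.52 and 0.49, against 0.15 over all genes. Such counts do not show that these cell types were unchanged. *Cd3e*, *Cd8a* and *Ly6g* were at or near 0 in most libraries, *Ly6g* reaching 46.3 in WT replicate 4. The part of these markers, read here in cells sorted as HSCs, in the proteasome values was not tested.

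Promoter windows of 250 bases before to 50 after the transcription start were available from RefSeq (GRCm38.p6) for 26 of the 32 members, without *Psma8*, *Psmb1*, *Psmb2*, *Psmc3*, *Psmd3* and *Psmd7*. They were searched on both strands for the antioxidant response element core bound by NFE2L1 and NFE2L2, as TGACNNNGC or TGAGNNNGC, and the second form was found in 11 of 26 members, against 22.3% of the 13682 tested genes with a window. The first form was found in 3 members, against 16.4% of these genes. The core of the interferon-stimulated response element, which IRF proteins bind, was searched as GAAANNGAA and found in 5 members, against 8.76%. A CCAAT box (CCAAT) was in 11 members, against 42.2%, and an E2F-like motif (GGCGGGAA) in 2, against 4.11%. A match is a stretch of letters and not a shown binding site.

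The upstream 250 bases of 4 members are given from 5′ to 3′ on the strand of the gene, because *Psma5* and *Psmd13* are the members that fell and *Psmb3* and *Psmd12* are examples of members with 2 kinds of antioxidant or interferon-stimulated response element core in this run, as *Psmc6* and *Psmd9* also are. *Psma5* lies at chr3:108256676-108256925 (plus strand) and *Psmd13* at chr7:140882144-140882393 (plus strand), and their matches to TGAGNNNGC start 8 and 1 bases after the start of transcription, outside the printed run, so no capitals appear. In *Psmb3*, at chr11:97703184-97703433 (plus strand), capitals mark an interferon-stimulated response element core and an antioxidant response element core of the second form, while its 2 CCAAT boxes, at −85 and −43, are left in small letters. In *Psmd12*, at chr11:107479278-107479527 (plus strand), capitals mark the first and then the second form of the antioxidant response element core.
Psma5: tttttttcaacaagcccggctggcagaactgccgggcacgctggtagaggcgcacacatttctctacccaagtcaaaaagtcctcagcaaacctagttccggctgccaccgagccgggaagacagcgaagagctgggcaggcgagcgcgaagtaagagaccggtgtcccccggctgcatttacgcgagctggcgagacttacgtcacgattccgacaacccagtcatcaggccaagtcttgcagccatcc
Psmd13: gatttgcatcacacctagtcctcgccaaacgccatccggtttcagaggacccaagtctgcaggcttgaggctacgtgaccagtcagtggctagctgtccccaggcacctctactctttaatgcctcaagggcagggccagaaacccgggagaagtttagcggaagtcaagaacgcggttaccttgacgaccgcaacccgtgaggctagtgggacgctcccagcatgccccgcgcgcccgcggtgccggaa
Psmb3: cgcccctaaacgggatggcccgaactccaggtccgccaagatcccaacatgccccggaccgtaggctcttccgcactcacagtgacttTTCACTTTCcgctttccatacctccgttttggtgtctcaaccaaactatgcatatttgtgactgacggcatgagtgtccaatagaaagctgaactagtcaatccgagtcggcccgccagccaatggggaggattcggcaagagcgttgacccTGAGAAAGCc
Psmd12: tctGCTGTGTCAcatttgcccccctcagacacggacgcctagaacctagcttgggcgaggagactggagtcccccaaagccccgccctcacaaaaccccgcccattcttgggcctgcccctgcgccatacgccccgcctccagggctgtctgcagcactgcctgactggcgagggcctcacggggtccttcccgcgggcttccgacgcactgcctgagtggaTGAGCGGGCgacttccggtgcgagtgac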

How the data were processed

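The deposited table holds signal values for 26264 genes, which the authors made from reads trimmed with Trim Galore!, aligned with HISAT2 to mm39, counted per gene with Htseq-count and divided by DESeq2 size factors. All values were whole multiples of their library's smallest step (tolerance 0.01), so whole reads were recovered. The sources used give neither the annotation nor the strand setting, and reads of overlapping genes or pseudogenes may be shared. Genes with a mean of at least 10 were tested with limma 3.58.1 (trend, R 4.3.3) on log2 values with 1 added, 2-sided, with Benjamini-Hochberg adjustment over 17404 genes. Called genes had an adjusted *P* under 0.05 and a log2 fold change beyond 0.58. Alternatives changed the added count, filter, trend, scaling, replicate block, libraries and tool (edgeR 4.0.16, DESeq2 1.42.0). The fits were tested on simulated data. Intervals are 95% and reflect the spread between 3 libraries per genotype. Transcript lengths came from GENCODE vM1, the transcript with the longest coding sequence, and cell cycle lists from Seurat 5.3.0. Members and lists were chosen with earlier results of these data known. Per-library values are given for members with an adjusted *P* under 0.05, for the 2 smallest *P* values and the highest and lowest level per kb of transcript in each subcomplex, for *Irf1*, for pathway genes that passed, and for *Psmb5*, *Psmb6* and *Psmb7*. The counts of non-overlapping genes, the marker recounts and the lists by function within the Psmd series were added after seeing the data.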

Additional observations from a re-analysis of the deposited data

How the results depend on the processing

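The median log2 fold change of all members stayed below 0 under every alternative, from −0.31 to −0.17, and the count called stayed at 0. Members with an adjusted *P* under 0.05, 2 in the reported fit, numbered 0 without limma's trend, 10 with the replicate number as a block and 8 in DESeq2, where 0.230%, 6.18% and 7.64% of all genes passed against 3.22%, and 0 to 5 when a library was left out, with 1.33% to 5.77% of all genes. The block is not used, since not every library correlates best with the one of its own number (*r* over genes of −0.094, 0.25 and 0.15 for numbers 2, 3 and 4, with 0.10 for WT replicate 2 and *Irf1-/-* replicate 3 and 0.25 for WT replicate 4 and *Irf1-/-* replicate 2). Members without overlap between genotypes, 13 as deposited, numbered 24 after median centering, 25 after quantile normalization and 13 to 30 when a library was left out, which can only raise them. Psmc and Psmd members, 2 as deposited, numbered 13, 14 and 2 to 19, alternatives chosen after seeing the data. The share of all genes without overlap was 9.27% as deposited, 12.7% and 11.4% in these scalings and 12% to 19.8% when a library was left out. *Psma8* reversed to −0.017 with centering, −0.047 with quantile normalization, −0.034 in edgeR and −0.037 in DESeq2, and ranged from −0.18 to 0.28 when a library was left out. The cause of these shifts was not tested. Every member had at least 417 reads in every library, which counts reads and not molecules.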
